A study of Homo sapiens with 10 samples.

Results

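The 9 genes described here encode the nuclear lamins and proteins that tie them to the inner nuclear membrane and to chromatin: LMNB1, LMNB2, LMNA, LBR, TMPO, EMD, SUN1, SUN2 and BANF1. Their rows were selected by gene name, and each had 1 of the 61587 gene rows of the count table. RNA was measured by poly(A) RNA-seq in RPTEC/TERT1, a telomerase-immortalised line of human renal proximal tubule epithelial cells, in 5 irradiated and 5 control samples. The irradiated cells received 10 Gy of gamma irradiation from a caesium source, the controls were mock-irradiated (0 Gy), and RNA of both groups was collected at day 7. Samples with the same replicate number were compared as a pair. Every sample came from the same cell line, so the results describe that line alone, and since the labels do not say whether replicates were separate cultures, p-values measure the spread between these samples, which may be technical. The labels count up the name of the line from sample to sample, whereas the study design names RPTEC/TERT1 throughout.

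Depth ranged from 66269311 to 131555873 counts per sample, and each of the 9 genes had between 1059 and 100339 counts in every sample. Levels are given as CPM, counts scaled to the size of each library after TMM normalisation, and a change was called where the adjusted p of edgeR's quasi-likelihood test was under 0.05 over the 19006 genes tested. The treatment labels were checked on CDKN1A, the p53 target that encodes the cell cycle inhibitor p21, and on MKI67, which marks dividing cells. CDKN1A lay at 80.9, 80.3, 207.6, 66.7 and 74.3 CPM in control replicates 1 to 5 and between 584.4 and 768.4 CPM in the irradiated samples (log2 fold change 2.92, SE 0.24, adjusted p = 9.11e-05). MKI67 lay at 76.7, 220.4, 60.4, 233.9 and 216.7 CPM in the controls and between 15.3 and 29.6 CPM after irradiation (log2 fold change -2.57, SE 0.39, adjusted p = 0.001405). Neither gene overlapped between groups, but the controls were not uniform. Control replicates 1 and 3 held less MKI67 than the other controls, and control replicate 3 also held more CDKN1A. The fitted changes of the 9 genes are therefore also plotted without replicates 1 and 3. Both were singled out by control levels in these same data. P-values of fits without them therefore describe the remaining pairs and are not separate support, also where they are smaller. Values without them are given for some of the other genes, not for all that moved.

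The cell type label was checked against markers of kidney epithelium and of the proximal tubule. PAX8, a kidney lineage transcription factor, averaged 533.0 CPM in control and 594.4 CPM in irradiated samples, and KRT8, an epithelial keratin, averaged 1010 and 1088 CPM. Markers of the mature proximal tubule were uneven. CUBN, the endocytic receptor cubilin, averaged 4.37 CPM in control and 4.76 CPM in irradiated samples, whereas other markers were close to absent. Over all 10 samples HNF4A, the transcription factor of tubule identity, had 12 counts, LRP2, the endocytic receptor megalin, had 17 counts, and SLC34A1, the phosphate transporter, had 86 counts.

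The lamina is a meshwork of intermediate filaments beneath the inner nuclear membrane. B-type lamins, encoded by LMNB1 and LMNB2, keep a farnesyl lipid and stay at the membrane, whereas LMNA gives rise to lamins A and C by alternative splicing, of which mature lamin A loses its lipid. Inner membrane proteins hold the meshwork in place and bind chromatin, and SUN proteins connect it to the cytoskeleton through nesprins in the LINC complex. A low level of lamin B1 is widely used as a marker of cellular senescence, and several lamina genes are made in step with the cell cycle.

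Promoter sequence was held for 8 of the 9 genes in 14 windows of 250 bases before to 50 bases after a start site (RefSeq, GRCh38.p14); SUN1 had no entry. The windows were searched on both strands for CCAAT, the CCAAT box, for TTTGAA, the letters of the cell cycle genes homology region (CHR), and for GGCGGGAA, a form of the E2F site. The CCAAT box was found in 6 of the 14 windows, from 5 genes (LMNA, LMNB1, TMPO, SUN2 and EMD), and in 34.6% of all 35116 windows in the table. TTTGAA was found in 2 of the 14 (LMNB2 and SUN2) and in 15.2% of all windows, and GGCGGGAA in 1 (LMNA) and in 3.16%. The 250 bases before the start of TMPO on the plus strand, chr12:98515323-98515572, are shown because they hold CCAAT more than once close to the start; a CCAAT site of LMNB1, the CCAAT site of EMD nearer to the start, and the TTTGAA sites of LMNB2 and SUN2 are shown with the bases around them, for comparison among genes that moved differently. Capitals mark each match of a motif or its reverse complement (ATTGG or TTCAAA), and the SUN2 stretch also holds a CCAAT, and each sequence is written 5′ to 3′ on the strand of its gene. The sites lie at chr5:126776986-126777015 (LMNB1, plus strand, starting 138 bases before a start site), chrX:154379168-154379197 (EMD, plus strand, 115 bases before), chr19:2457180-2457209 (LMNB2, minus strand, 246 bases before) and chr22:38756092-38756121 (SUN2, minus strand, 111 bases before).
TMPO: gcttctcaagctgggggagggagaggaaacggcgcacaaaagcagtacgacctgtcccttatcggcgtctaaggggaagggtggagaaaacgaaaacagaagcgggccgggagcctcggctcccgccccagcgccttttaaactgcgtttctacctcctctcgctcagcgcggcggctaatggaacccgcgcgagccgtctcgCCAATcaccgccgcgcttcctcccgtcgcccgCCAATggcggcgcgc
LMNB1: tgcctgctccccATTGGcccatggtagtca
EMD: ctccgccgctagCCAATcctcgcgttgatg
LMNB2: gttcTTTGAAcacgttttgaggttctctaa
SUN2: cggggctttgtgTTCAAAccggCCAATggg
These matches describe letters in a window, and genes that hold CCAAT included both TMPO, which fell after irradiation, and LMNA, which was not called.

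Of the 9 genes, 5 were lower after irradiation (LMNB1, LBR, TMPO, EMD and SUN2), none was higher and 4 were not called (LMNB2, LMNA, SUN1 and BANF1). Among all genes tested, 46.6% were called, 22.7% lower and 23.9% higher, with a median log2 fold change of -0.01 against -0.23 for the 9 genes. The groups did not overlap in 4 of the 9 (LMNB1, LBR, TMPO and EMD), against 26.7% of all genes tested. Of all called genes 51.4% were higher; scaling by library size alone lowered that share to 38% and added LMNB2 to the genes called lower. The bulk RNA does not tell fewer cells with a transcript from less of it per cell.

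**Figure D1:**
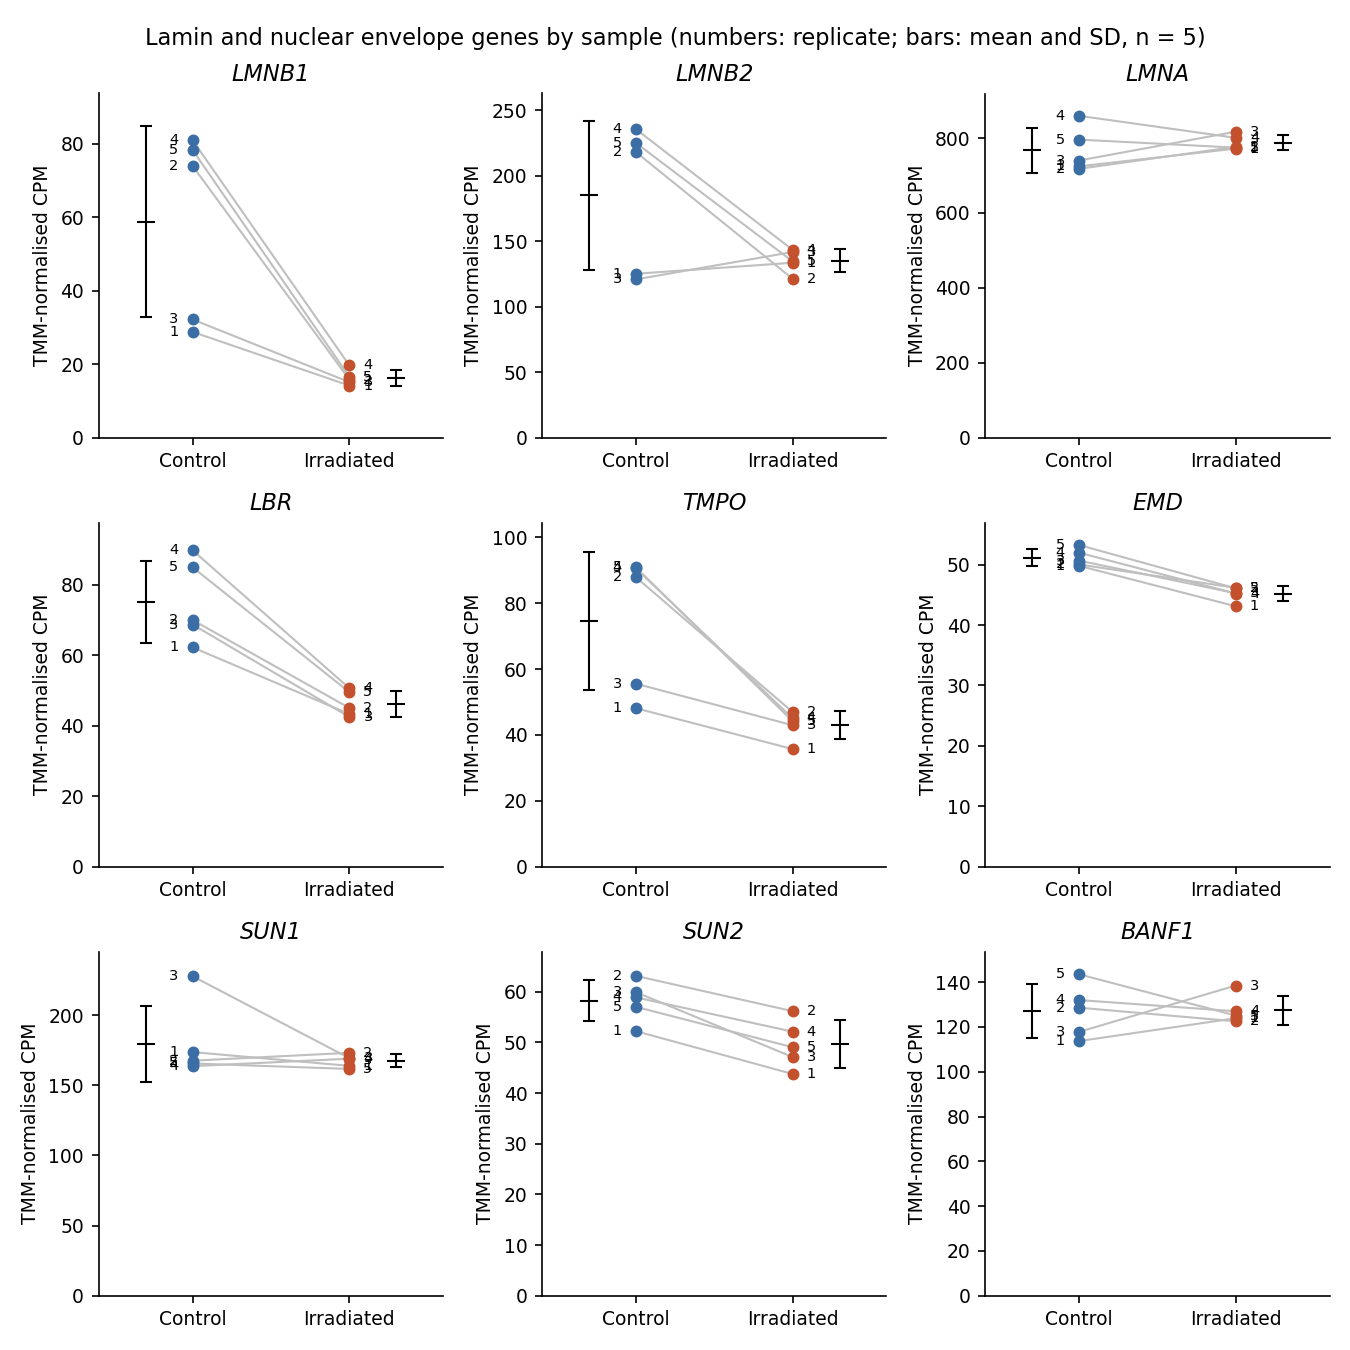
TMM-normalised CPM of the 9 genes in control and irradiated samples, with grey lines joining samples of the same replicate number and bars for the mean and SD of 5 samples. In LMNB1 the irradiated samples sit between 14.2 and 19.7 CPM, below every control, and control replicates 1 and 3 (28.8 and 32.2 CPM) sit between them and the other controls.

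LMNB1 (chr5:126776623-126837020, plus strand, GRCh38), which encodes lamin B1, showed the largest fall of the 9. Its level was 28.8, 73.9, 32.2, 80.9 and 78.2 CPM in control replicates 1 to 5 and 14.2, 15.8, 15.1, 19.7 and 16.6 CPM in irradiated replicates 1 to 5. Every irradiated sample lay below every control, and the irradiated samples were close together where the controls fell into a low pair (1 and 3) and a high trio. The mean went from 58.8 ± 26 to 16.3 ± 2.11 CPM (SD, n = 5 each), a fitted log2 fold change of -1.73 (SE 0.21, adjusted p = 0.000479), or 3.31-fold lower. Only 247 of the 4307 genes called lower had a larger fitted fall. The log2 difference within pairs was -1.02 and -1.09 in pairs 1 and 3 and -2.22, -2.04 and -2.24 in pairs 2, 4 and 5. Without replicates 1 and 3 the fitted fall was -2.18 on the log2 scale (adjusted p = 7.57e-06).

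LMNB2 (chr19:2427638-2456959, minus strand) encodes lamin B2, the other B-type lamin. It stood at 125.1, 218.0, 120.8, 235.5 and 225.0 CPM in the controls and at 133.5, 121.3, 141.7, 143.4 and 134.6 CPM after irradiation. The irradiated samples were all at or near the level of control replicates 1 and 3, and well below the other controls, so the groups overlapped. The fitted log2 fold change of -0.40 (SE 0.17) was not called (adjusted p = 0.0931), and its sign differed between pairs, at 0.09 and 0.23 in pairs 1 and 3 against -0.85, -0.72 and -0.74 in pairs 2, 4 and 5. Without replicates 1 and 3 LMNB2 was called lower, at -0.78 (SE 0.05, adjusted p = 5.47e-05). Those were the only pairs in which LMNB2 was not lower, so leaving them out favours that call. LMNB2 was also called without replicate 3 alone (-0.55, adjusted p = 0.0207). Without replicate 1 alone it was not called (-0.52, adjusted p = 0.0654). Among the 9 genes LMNB2 was the only one whose call changed when replicates 1 and 3 were left out.

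LMNA (chr1:156082573-156140081, plus strand), the source of lamins A and C, was the most abundant of the 9. Its level was 724.4, 717.8, 740.0, 859.3 and 795.8 CPM in the controls and 771.8, 776.5, 817.0, 800.6 and 774.3 CPM in the irradiated samples. The irradiated samples all fell inside the range of the controls. The fitted log2 fold change of 0.04 (SE 0.06, adjusted p = 0.577) was not called, and its sign turned to -0.03 under library size scaling and, separately, without replicates 1 and 3. Gene counts do not separate the lamin A and lamin C transcripts.

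LBR (chr1:225401502-225428925, minus strand) encodes the lamin B receptor, an inner membrane protein that binds B-type lamins and heterochromatin and carries a sterol reductase domain. Its level was 62.2, 69.9, 68.7, 89.7 and 84.9 CPM in the controls and 43.3, 45.0, 42.5, 50.6 and 49.5 CPM in the irradiated samples. The groups did not overlap, and replicates 4 and 5 were the highest in both. LBR fell by 0.69 on the log2 scale (SE 0.05, adjusted p = 6.57e-05), from 75.1 ± 11.7 to 46.2 ± 3.68 CPM (SD, n = 5 each), with pair differences from -0.52 to -0.83. Its adjusted p was the lowest of the 9 genes, with a smaller standard error than that of LMNB1. Without replicates 1 and 3 the change was -0.76.

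TMPO (chr12:98515579-98550351, plus strand) encodes the LAP2 proteins, which carry a LEM domain and bind lamins at the membrane or in the nucleoplasm. It stood at 48.1, 87.9, 55.6, 90.6 and 90.9 CPM in the controls and at 35.7, 47.0, 43.0, 45.1 and 44.2 CPM after irradiation. The highest irradiated sample was only just below control replicate 1, and the low pair among the controls was the same as for LMNB1. TMPO fell by 0.75 on the log2 scale (SE 0.11, adjusted p = 0.00125), and by 1.0 without replicates 1 and 3 (adjusted p = 2.1e-05). Exons of the opposite strand covered 7.60% of its exon length, where counting without strand loses shared reads.

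TMPO-AS1, the antisense transcript at the start of TMPO (chr12:98512973-98516422, minus strand), was singled out after its values were seen. It was present at low level, at 0.60, 1.65, 0.57, 1.73 and 1.65 CPM in the controls and between 0.39 and 0.65 CPM in the irradiated samples. The same control pair was low, and the irradiated range reached above it. TMPO-AS1 was called lower (log2 fold change -1.14, SE 0.30, adjusted p = 0.0170) and was lower in 5 of 5 pairs. Exons of the opposite strand covered 19.2% of its exons, and how much of each value comes from reads of the other strand was not tested.

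EMD (chrX:154379273-154381574, plus strand) encodes emerin, another LEM-domain protein of the inner membrane. Its level was 49.8, 50, 50.7, 52.0 and 53.3 CPM in the controls and 43.1, 46.2, 45.3, 45.2 and 46.1 CPM in the irradiated samples. The spread within each group was small, and the groups did not overlap although the difference was slight. EMD fell by 0.18 on the log2 scale (SE 0.04, adjusted p = 0.00679), a difference of -11.7% that was seen in 5 of 5 pairs. Control replicates 1 and 3 were not set apart in this gene.

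SUN2 (chr22:38733290-38794143, minus strand) encodes an inner membrane protein of the LINC complex. It stood at 52.2, 63.1, 59.9, 58.9 and 57.0 CPM in the controls and at 43.8, 56.2, 47.1, 52.1 and 49.1 CPM after irradiation. The groups overlapped, since irradiated replicate 2 was above control replicate 1, but each irradiated sample was below its own control. SUN2 fell by 0.23 on the log2 scale (SE 0.04, adjusted p = 0.00342). Exons of the opposite strand covered 23.6% of its exon length, the highest share among the 9 genes.

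SUN1 (chr7:816615-896435, plus strand), its paralogue, lay at 173.7, 167.6, 227.8, 163.7 and 165.6 CPM in the controls and at 163.9, 173.2, 169.4, 169.0 and 161.7 CPM after irradiation. Control replicate 3 stood alone above all other samples, which were close together. The log2 fold change of -0.09 (SE 0.07, adjusted p = 0.347) was not called, and without replicates 1 and 3 it was 0.0034.

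BANF1 (chr11:66002228-66004149, plus strand) encodes barrier-to-autointegration factor, which cross-links DNA and binds LEM-domain proteins. It stood at 113.7, 128.6, 117.8, 132.0 and 143.5 CPM in the controls and at 123.9, 122.5, 138.5, 127.0 and 125.1 CPM after irradiation. The groups overlapped over most of their range. Its log2 fold change was 0.01 (SE 0.07, adjusted p = 0.943) and turned to -0.12 without replicates 1 and 3 (adjusted p = 0.0612). The 5 BANF1 pseudogene rows held 600 counts over all samples, 0.475% of the count of BANF1, and the 2 TMPO pseudogene rows 44 counts, 0.072% of the count of TMPO.

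**Figure D2:**
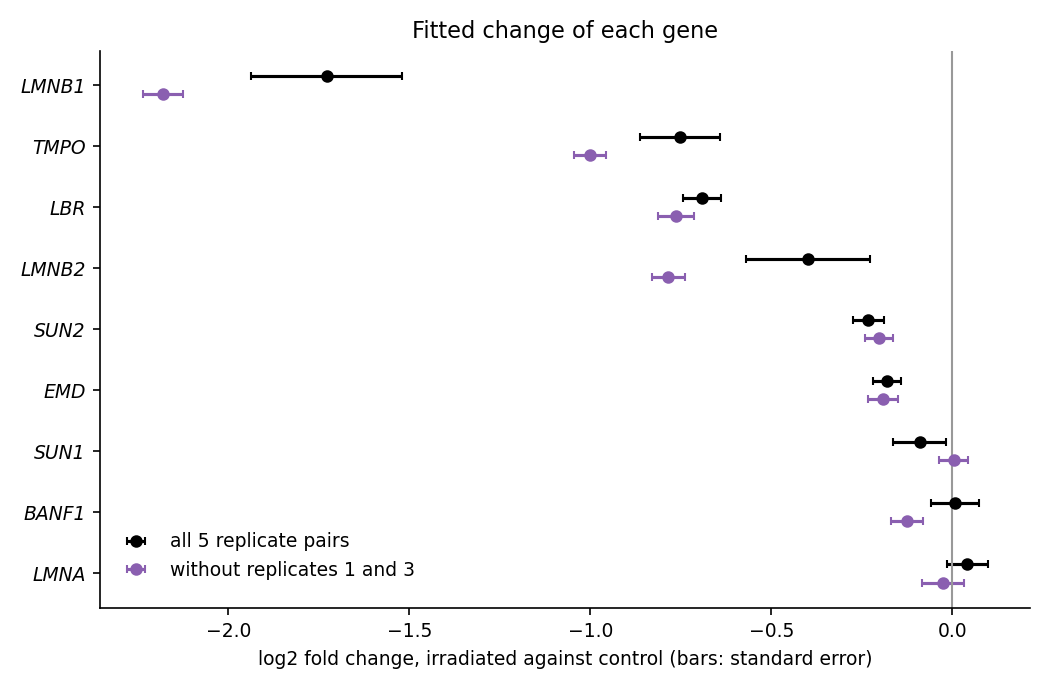
Fitted log2 fold change of each of the 9 genes, irradiated against control, with bars for the standard error, over all 5 replicate pairs (black) and without replicates 1 and 3 (purple). Leaving out these replicates moved LMNB1 from -1.73 to -2.18 and LMNB2 from -0.40 to -0.78, while EMD and SUN2 stayed near -0.2.

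The balance between lamins was then compared within each sample, as ratios of counts that do not depend on how libraries were scaled. For each LMNB1 read there were 25.2, 9.72, 23.0, 10.6 and 10.2 LMNA reads in control replicates 1 to 5 and 54.5, 49.1, 54.1, 40.7 and 46.7 LMNA reads in irradiated replicates 1 to 5. Every irradiated sample held more LMNA per LMNB1 than any control. The log2 ratio of LMNB1 to LMNA differed by -1.76 between irradiated and control samples (exact permutation test, two-sided, p = 0.00794, adjusted over 6 ratios p = 0.0159, lower in 5 of 5 pairs). That p is the smallest that 5 samples against 5 allow. The B-type lamins also changed relative to each other. LMNB1 counts were 0.23, 0.34, 0.27, 0.34 and 0.35 of LMNB2 counts in the controls and between 0.11 and 0.14 in the irradiated samples, a log2 difference of -1.33 with no overlap (exact p = 0.00794, adjusted p = 0.0159). In the ratio of LMNB2 to LMNA the irradiated samples, at 0.16 to 0.18, were level with control replicates 1 and 3 (0.17 and 0.16) and below controls 2, 4 and 5 (0.27 to 0.30). Its log2 difference of -0.44 missed the threshold (exact p = 0.119, adjusted p = 0.143); without replicates 1 and 3 it was -0.758, where 3 samples a group cannot pass (exact test, adjusted p = 0.1).

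The ratio of LBR to LMNA was lower in every irradiated sample (0.05 to 0.06) than in any control (0.09 to 0.11), a log2 difference of -0.73 (exact permutation p = 0.00794, adjusted p = 0.0159). Between the LEM-domain genes, TMPO counts were 0.97, 1.76, 1.10, 1.74 and 1.71 of EMD counts in the controls and 0.83, 1.02, 0.95, 1.0 and 0.96 after irradiation. Control replicate 1 lay inside the irradiated range, and the difference of -0.57 on the log2 scale passed the threshold (exact p = 0.0238, adjusted p = 0.0357), a call that was lost with replicate 2, 3, 4 or 5 left out (exact test, adjusted p = 0.0857 to 0.129). SUN1 relative to SUN2 did not pass (log2 difference 0.14, exact p = 0.230, adjusted p = 0.230), and its groups overlapped. With 5 pairs, an exact test by sign flips within pairs cannot pass the threshold, and it gave an adjusted p = 0.0938 for each of the 4 ratios that passed above. LMNB1 to LMNA, LMNB1 to LMNB2 and LBR to LMNA also lost their call with replicate 2, 3, 4 or 5 left out (exact test, adjusted p = 0.0571 each). With each replicate left out in turn, their log2 differences stayed at -1.93 to -1.62, -1.38 to -1.28 and -0.762 to -0.706. An exact test of 4 samples a group cannot go below p = 0.0286 before adjustment, so these lost calls do not show smaller differences.

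**Figure D3:**
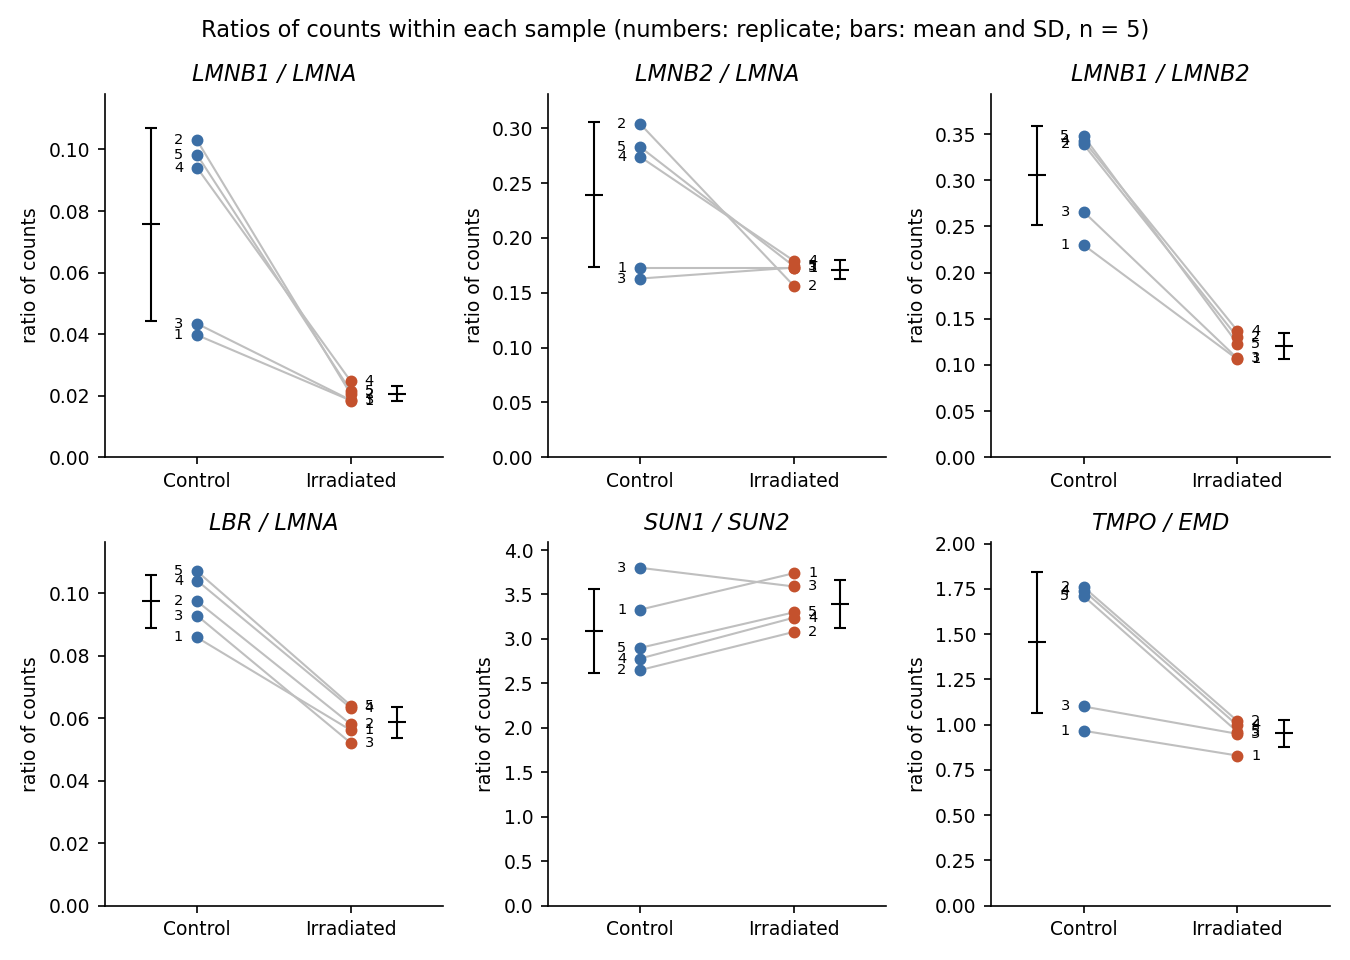
Ratios of counts between members of the group within each sample, control against irradiated, with lines joining pairs and bars for the mean and SD of 5 samples. LMNB1 to LMNA, LMNB1 to LMNB2 and LBR to LMNA do not overlap between groups, whereas LMNB2 to LMNA overlaps because control replicates 1 and 3 sit at 0.17 and 0.16.

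Whether controls with fewer division transcripts lay between the other controls and the irradiated samples was examined for each gene. The mean level of 25 cell division and replication genes was 4.05, 5.26, 4.01, 5.32 and 5.24 log2 CPM in control replicates 1 to 5 and between 2.98 and 3.45 log2 CPM in the irradiated samples. Control replicates 1 and 3 thus lay between the groups on that measure. They lay below controls 2, 4 and 5 in 5 of the 9 genes (LMNB1, LMNB2, LBR, TMPO and BANF1), and in 3 of these (LMNB1, LBR and TMPO) they were also above every irradiated sample. Of all genes tested, 20.7% met the first condition and 2.22% both. Relative to the lowest of the other controls, replicates 1 and 3 were 61.1% and 56.5% lower in LMNB1, 45.3% and 36.8% lower in TMPO, 42.6% and 44.6% lower in LMNB2, 11.1% and 1.81% lower in LBR, and 11.6% and 8.42% lower in BANF1. The position was thus intermediate for LMNB1. It was also intermediate for TMPO, but replicate 1 (48.1 CPM) lay only just above the highest irradiated sample (47.0 CPM). For LBR it was intermediate by a small margin below the other controls. For LMNB2 it was within or below the irradiated range, where replicate 3 (120.8 CPM) lay under all 5 irradiated samples. In BANF1 both replicates (113.7 and 117.8 CPM) lay under every irradiated sample (122.5 to 138.5 CPM). EMD and LMNA showed no such step among the controls. These are descriptions of individual samples, without a test, and how much of each fall goes with fewer dividing cells was not tested.

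**Figure D4:**
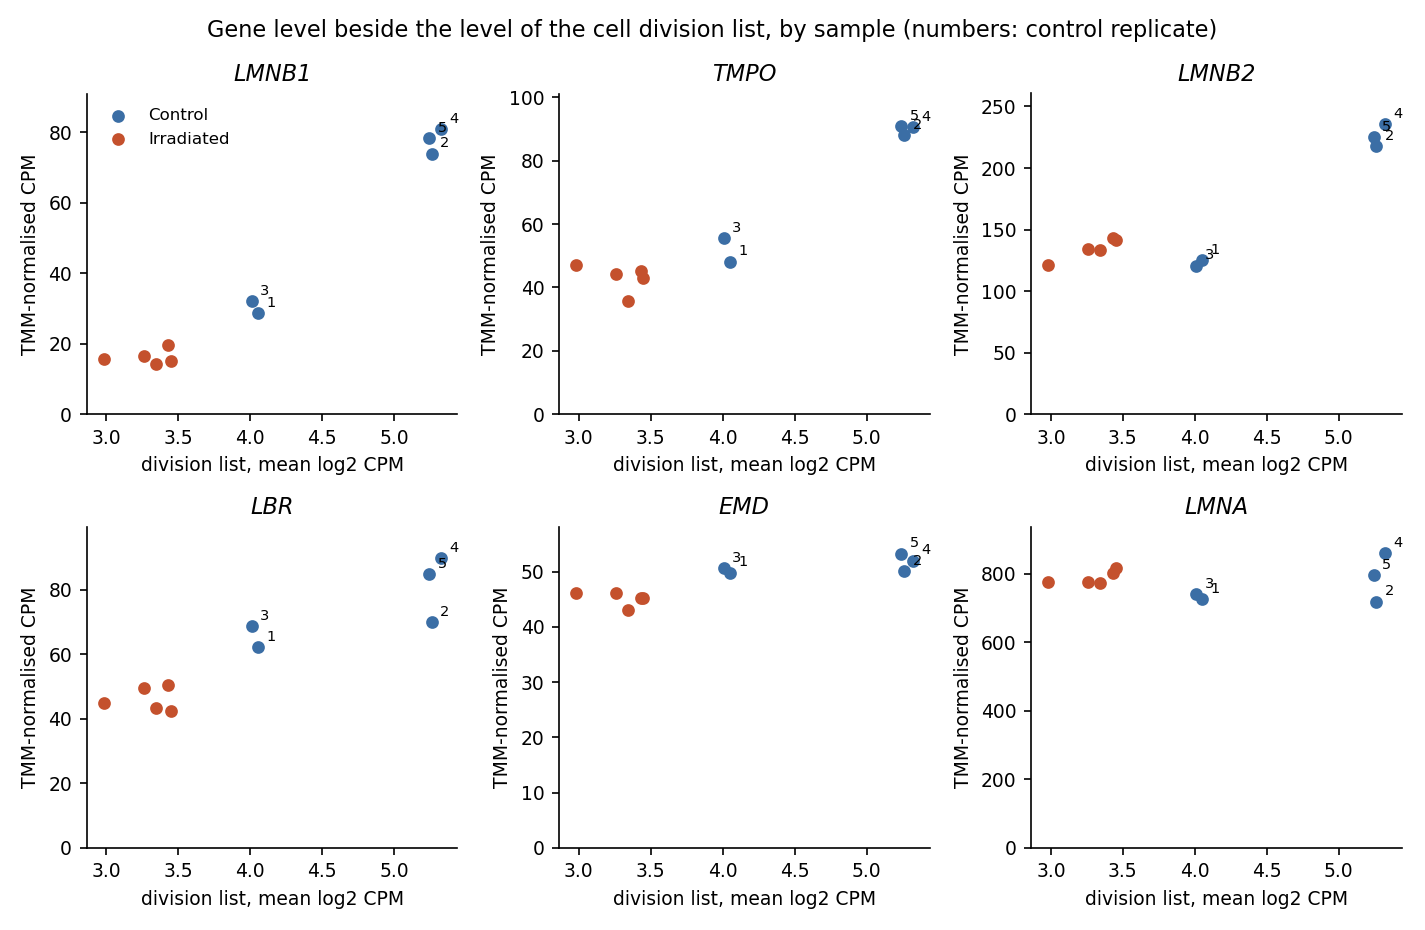
Level of 6 of the genes (TMM-normalised CPM) against the mean log2 CPM of 25 cell division genes in each of the 10 samples, with control replicates numbered. Control replicates 1 and 3, at about 4.0 on the division axis, are intermediate in LMNB1 (28.8 and 32.2 CPM) but level with the irradiated samples in LMNB2 (125.1 and 120.8 CPM).

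Compared between genes, levels are given as CPM per kilobase of merged exons. In the controls the order was LMNA (94.3 ± 7.35), BANF1 (85.0 ± 7.93), LMNB2 (34.3 ± 10.6), EMD (25.6 ± 0.727), LMNB1 (16.2 ± 7.16), SUN1 (15.2 ± 2.29), LBR (13.2 ± 2.04), TMPO (8.78 ± 2.47) and SUN2 (6.97 ± 0.482, SD, n = 5). Sample ranges of neighbours in that order overlapped except between BANF1 and LMNB2, between EMD and LMNB1, and between LBR and TMPO. After irradiation LMNB1 was the lowest of the 9, at 4.48 ± 0.581, with its range overlapping that of TMPO (5.06 ± 0.507), while LMNA (96.8 ± 2.44) and BANF1 (85.2 ± 4.30) remained at the top. Divided by the longest annotated transcript instead, SUN1 in the controls was 40.0 rather than 15.2 CPM per kilobase and stood beside LMNB2 (39.9) and EMD (39.8), so the order of the middle genes depends on the length used.

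Across the 10 samples, the genes whose pattern was most like that of LMNB1 were found by the root mean square difference of log2 CPM, each gene centred on its own mean, among 12842 genes with a mean of at least 1 log2 CPM. The 8 closest were PLK4 (0.154), KIF11 (0.168), ARHGAP11A (0.169), ERCC6L (0.170), KIF15 (0.171), CENPM (0.183), TCF19 (0.183) and BUB1B (0.196), on the log2 scale. PLK4 starts centriole duplication, KIF11 and KIF15 are spindle motors, CENPM is a centromere protein and BUB1B a spindle checkpoint kinase. PLK4, the closest, lay at 4.82, 12.4, 4.82, 13 and 11.8 CPM in the controls and between 2.73 and 3.34 CPM after irradiation, with the same low control pair as LMNB1. Among the other lamina genes TMPO came next to LMNB1, at rank 193 (0.531), then LBR at 319 (0.634) and LMNB2 at 457 (0.693). The genes most like LMNA were RSPRY1 (0.0334), DPM1 (0.0382), CPSF3 (0.0428), PPP6C (0.0442), CLNS1A (0.0449), MMADHC (0.0470), PARK7 (0.0478) and USP7 (0.0483). None of these 8 was called, and BANF1 stood at rank 361 (0.0768). All genes were measured in the same 10 samples, with the same treatment groups and low control pair, so likeness is a description.

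Other proteins of the inner membrane were called in both directions, with 5 of 12 higher, 4 lower and 3 not called (median log2 fold change 0.06). Over all genes tested, 23.9% were higher and 22.7% lower, for comparison with this list and those below. NRM, which encodes the membrane protein nurim, was lower in each pair (-0.83, SE 0.06, adjusted p = 5.4e-05), as were NEMP1 (-0.49; without replicates 1 and 3, -0.71) and TMEM201 (-0.45), the inner membrane protein SAMP1. LEMD3, which encodes the LEM-domain protein MAN1, fell by 0.15. That call was lost with replicate 2, 4 or 5 left out (adjusted p = 0.0616 to 0.0976) and without the replicate block (0.0757). Higher were TMEM43 (0.48), which encodes the emerin-binding protein LUMA, the torsin genes TOR1B (0.48) and TOR1A (0.13), the torsin cofactor gene TOR1AIP2 (0.36), and ANKLE2 (0.24), a LEM-domain protein that promotes return of BANF1 to chromatin. TOR1A lost its call under 9 of the 14 alternatives, among them library size scaling and the fit without the replicate block (adjusted p = 0.0563 to 0.362). None of these 12 changed by more than 2-fold; single genes are named here after their values were seen.

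In the LINC complex, 5 of 7 listed genes beside SUN1 and SUN2 had enough counts to be tested. SYNE2 was higher (log2 fold change 0.28, adjusted p = 0.0278) and SYNE1 (-0.26, adjusted p = 0.0101) and SYNE3 (-0.66, adjusted p = 0.00137) were lower, all 3 of which encode nesprins. SYNE2 was no longer called with replicate 1, 4 or 5 left out (adjusted p = 0.0895 to 0.0963), under library size scaling (0.0751) or without the replicate block (0.10), where SYNE1 was not called either (0.0734). Of the 5 genes that process prelamin A, 2 were higher and 3 were not called. ZMPSTE24, the protease that removes the farnesylated tail of prelamin A, rose by 0.26 (adjusted p = 0.00947). Without replicates 1 and 3 its rise was smaller, at 0.136 (adjusted p = 0.0248). FNTA, a subunit of farnesyltransferase, rose by 0.19 (adjusted p = 0.00719), though FNTA was not called when genes with at least 1 count were kept (adjusted p = 0.104).

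Of all genes tested, 22.7% were lower and 23.9% higher. Among 31 nuclear pore genes, 10 were lower, 2 higher (RANBP2, 0.16, and POM121, 0.20) and 19 not called, with a median of -0.10. Neither rise was called with replicate 1, 4 or 5 left out (adjusted p = 0.0503 to 0.0675), and 19 of the 31 were called lower under library size scaling and 18 without replicates 1 and 3. NUP210, a transmembrane nucleoporin, was the only gene of that list past 2-fold. It stood at 77.3, 148.9, 89.3, 132.4 and 121.0 CPM in the controls and between 43.3 and 54.4 CPM after irradiation, a log2 fold change of -1.15 (SE 0.11, adjusted p = 0.000177) that was -1.36 without replicates 1 and 3. Its groups did not overlap, and control replicates 1 and 3 were again the lowest controls. The other 9 pore genes called lower changed by -0.36 (NDC1) to -0.22 (NUP93), and neither of these was called with replicate 2, 4 or 5 left out (adjusted p = 0.0595 to 0.115), nor NUP93 without the replicate block (0.056). Without replicates 1 and 3 they were called at -0.60 (NDC1, adjusted p = 9.65e-05) and -0.34 (NUP93, adjusted p = 0.00134).

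Heterochromatin proteins that meet the lamina were called in the lower direction only, 6 of 8, against 22.7% of all genes tested. CBX5, which encodes the LBR partner HP1 alpha, changed by -0.40 (291.9 ± 55.3 to 218.8 ± 26.2 CPM, SD, n = 5, adjusted p = 0.00138), CBX1 by -0.28, and SUV39H1, a histone H3 lysine methyltransferase, by -0.58 (adjusted p = 0.0283). That count dropped to 3 without the replicate block, and also with replicate 2, 4 or 5 left out, and was 8 of 8 under library size scaling and without replicates 1 and 3. SUV39H1 was not called with replicate 1, 2, 4 or 5 left out (adjusted p = 0.0538 to 0.0984) and was called at -0.91 without replicates 1 and 3 (adjusted p = 0.000553). Of 11 genes of envelope reassembly after mitosis, 4 were higher, 2 lower and 5 not called (all genes tested: 23.9% higher, 22.7% lower). VRK1, the kinase that releases BANF1 from chromatin, fell by 0.56 (adjusted p = 0.0123; without replicate 5, 0.0545), and by 0.83 without replicates 1 and 3, while CHMP7 (0.23) and VPS4B (0.36) rose. The other ESCRT genes of that list that seal the membrane, CHMP4B (0.08), CHMP2A (0.06), IST1 (-0.07) and VPS4A (-0.06), were not called. In late cholesterol synthesis, where LBR can act as a sterol reductase, 2 of 8 genes were higher and 6 not called. Of all genes tested, 23.9% were higher. Without replicates 1 and 3 none of the 8 was called higher and 3 were called lower. MSMO1, a sterol oxidase, rose by 0.61 (adjusted p = 0.0135). Without replicates 1 and 3 its change was 0.315 and was not called (adjusted p = 0.0536). TM7SF2, the other sterol C14 reductase, lay at 99.6 ± 11.6 CPM in control and 102.2 ± 8.06 CPM in irradiated samples (SD, n = 5) and was not called (log2 fold change 0.04, adjusted p = 0.662).

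For reference, 22 of 25 cell division genes were lower, none higher and 3 not called (median -1.76), and all 25 were lower without replicates 1 and 3. Those with the largest falls were MKI67, KIF20A (-2.56), CENPF (-2.32) and AURKB (-2.13), so that LMNB1, at -1.73, lay close to the median of the list. Of 9 p53 targets and senescence-associated inhibitors, 8 were higher and GDF15 was not called (median 1.12). GDF15 lay at 418.2 CPM in control replicate 3, against 90.6 to 157.4 CPM in the other controls. All 9 were called higher without replicate 3, and also without replicates 1 and 3. CDKN1A, MDM2 (1.85), FDXR (1.57) and ZMAT3 (1.32) rose the most. Control replicate 3 held 885.0 CPM summed over this list, against 397.7 to 486.2 CPM in the other controls and 1345 to 1661 CPM in the irradiated samples.

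**Figure D5:**
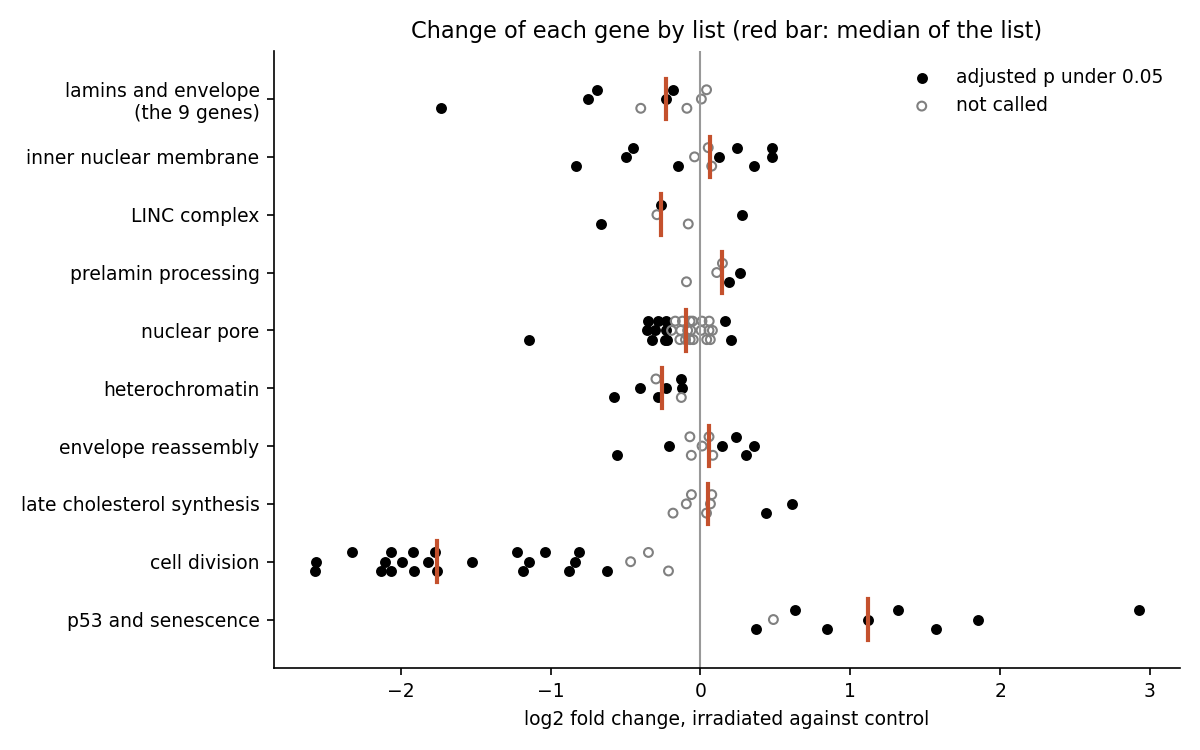
Log2 fold change, irradiated against control, of each tested gene in 10 lists (filled: adjusted p under 0.05; open: not called), with a red bar at the median of each list. The 9 lamin and envelope genes have a median of -0.23 and extend to LMNB1 at -1.73, the cell division list has a median of -1.76, and the inner membrane and pore lists lie near 0.

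Markers of other cell types were at low level but moved with the groups in part. Of 7 fibroblast genes only COL1A1 and DCN were tested, and both rose (0.78 and 2.36). Their list summed to 15.9 to 23.5 CPM in control and 28.6 to 40.1 CPM in irradiated samples, most of it COL1A1. The other 5 had 103 (PDGFRA), 49 (PDGFRB), 23 (COL1A2), 4 (COL3A1) and 2 (LUM) counts over all samples. Of 5 endothelial genes 3 were tested. CDH5 (2.48) and PECAM1 (0.72) rose and VWF was not called, with sums of 1.32 to 2.45 and 4.18 to 6.09 CPM, and the defining receptor KDR had 2 counts. Of 5 leukocyte genes only PTPRC was tested and it was not called, and the list summed to at most 0.770 CPM in any sample. The part of these transcripts in the lamina results was not tested. The share of mitochondrial counts was 7.78% to 10.7% in control and 9.0% to 12.2% in irradiated samples and was higher after irradiation in 5 of 5 pairs, and its part in the results was not tested either.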

How the data were processed

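Per the study's methods, the authors trimmed adapters from paired-end reads with Trim-Galore, aligned them to GRCh38 with STAR (v2.7.9a) and counted reads per GENCODE gene during alignment; the annotation release is not given in the sources used here. The deposited values are raw counts per gene, without normalisation, for 10 samples. Of 61587 rows, 61369 matched symbols in GENCODE release 44, the source of coordinates and exon lengths. None of 17 protein-coding genes whose exons are entirely covered by the other strand had a count, whereas 10.7% of 12742 uncovered genes were at 0, so the counts were treated as unstranded.

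Counts were tested in R 4.3.3 with edgeR 4.0.16 (TMM, glmQLFit, glmQLFTest, at least 200 counts over the 10 samples, replicate number as block, Benjamini-Hochberg adjustment). Replicate numbers were taken as pairs because deviations from group means correlated for each number (r = 0.217 to 0.508; different numbers, -0.354 to 0.317). The chi-square per gene between replicates (8.5 to 213) was far above that of sampling noise. It was lowest between replicates 4 and 5, at 15.1 in controls and 8.5 in irradiated samples. Between any other replicates it was at least 57.1 in controls and 40.4 in irradiated samples. The samples may thus hold fewer independent units than the p-values assume, above all in the fit without replicates 1 and 3. Log2 CPM used a prior count of 2. Ratios of counts were compared by exact permutation over all assignments of samples to groups. Alternatives were DESeq2 1.42.0, limma-voom (limma 3.58.1), other normalisations and filters, no block, and replicates left out. The scripts were tested on simulated data. Figures used matplotlib 3.10.9 in Python 3.11.15.

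The 9 genes and the other lists were chosen with earlier results of these data known. Named genes are the 9, up to 4 rises and 4 falls per list past 2-fold, the 8 genes most like LMNB1 and LMNA, pseudogene rows, CDKN1A and MKI67; genes of the lists named beyond these were picked after their values were seen, and a gene of the cholesterol list is not reported here. Differences in depth limit precision less than the spread between replicates does.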

Additional observations from a re-analysis of the deposited data

Results flagged for a closer look

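In 3 of 48 groups of 5 samples, the highest or lowest sample lay apart from the other 4 by more than Dixon's 95% limit of 0.71 of the group's range, where chance alone gives about 2.4. SUN1 was 227.8 CPM in control replicate 3 against 163.7 to 173.7 CPM in the other controls (gap 0.845 of the range). BANF1 was 138.5 CPM in irradiated replicate 3 against 122.5 to 127.0 CPM (0.717). The ratio of LMNB2 to LMNA counts was 0.1562 in irradiated replicate 2, the library of lowest depth, against 0.173 to 0.1791 in the other irradiated samples (0.731).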

How the results depend on the processing

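The 5 genes called lower (LBR, LMNB1, TMPO, SUN2 and EMD) kept that call under all 14 alternatives, with fitted log2 changes of -2.18 to -1.59 for LMNB1, -1.0 to -0.67 for TMPO, -0.77 to -0.66 for LBR, -0.31 to -0.20 for SUN2 and -0.26 to -0.17 for EMD. LMNB2 made 6 under library size scaling (-0.47, adjusted p = 0.0497), a minimum of 1 count (-0.43), without replicate 3, and without replicates 1 and 3. Signs turned only in genes that were not called. LMNA was -0.0349 (library size) and -0.0262 (without replicates 1 and 3), and SUN1 0.00342 (without replicates 1 and 3). BANF1 was -0.0262 (upper quartile), -0.0695 (library size), -0.0285 (minimum of 1 count), -0.00253 (filterByExpr) and -0.125 (without replicates 1 and 3), and -0.0449 to 0.065 with each replicate left out. Calls over all genes numbered 8857, against 7006 without the replicate block and 9503 under library size scaling (3609 higher, 5894 lower).

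Ratios keep their value under the replicate block, where sign flips within pairs gave an adjusted p = 0.0938 for LMNB1/LMNA (-1.76), LMNB1/LMNB2 (-1.33), LBR/LMNA (-0.732) and TMPO/EMD (-0.571). Without replicates 1 and 3 they were -2.16, -1.4, -0.737 and -0.809, with exact p-values that cannot go below 0.1. With each replicate left out they ran from -1.93 to -1.62, -1.38 to -1.28, -0.762 to -0.706 and -0.662 to -0.507; 4 samples a group cannot go below 0.0286 before adjustment. LMNB2/LMNA was -0.568 to -0.306 with each left out.

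Several list counts moved. LINC genes higher were 0 under library size scaling and without the block (0 to 1 with a replicate left out), and lower 1 without the block. Prelamin genes higher were 1 at a minimum of 1 count. Pore genes higher were 0 under library size scaling, a minimum of 1 count and without replicates 1 and 3, and 1 without the block (0 to 2), and lower 19 under library size scaling and 18 without replicates 1 and 3. Heterochromatin genes lower were 3 without the block (3 to 7). Reassembly genes lower were 4 under library size scaling and 1 without the block and without replicates 1 and 3 (0 to 2). Sterol genes higher were 1 under library size scaling and 0 without replicates 1 and 3 (1 to 2), and lower 1 and 3 (0 to 1). The cause was not tested.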
